A study of Mus musculus with 6 samples.

Results

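The transcription factors that steer a thymocyte to the CD4 or the CD8 fate, together with the CD4 co-receptor gene itself, were compared between Bach2 knockout and wildtype thymocytes. Of 10 genes named for this role (Cd4, Zbtb7b, Gata3, Tox, Myb, Runx1, Runx3, Cbfb, Zbtb7a and Mazr), 9 were found as the exact single gene symbol of a probe set, out of 19938 genes measured that way. Each of the 9 had 1 probe set. Mazr matched no symbol. The RefSeq gene table lists Mazr as an older name of Patz1, so Patz1 is described beside the 9 and is not counted among them.

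The knockout cells (Bach2 KO) were Ly5.1- and the wildtype cells (WT) were Ly5.1+, all on the C57BL/6 background and from male mice. Bone marrow of both genotypes, from donors 8 weeks old, had been mixed in equal parts and given to lethally irradiated male Rag1 knockout recipients of the same age, which cannot form T or B cells. After 2 months, CD4 single-positive thymocytes of each genotype were sorted by flow cytometry for Ly5.1, which marks one variant of CD45 on the cell surface. There were 3 arrays per genotype, and the design text gives separate mice as the source of the 6 samples. The Ly5.1 allele went together with genotype on all arrays, so its effect cannot be told apart from that of Bach2. All values are log2 expression, in which a difference of 1 is a doubling, and all differences are Bach2 KO minus WT.

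CD4 and CD8 T cells arise from a common thymocyte that carries both co-receptors. A cell selected on MHC class II keeps CD4 and expresses the zinc finger repressor ThPOK, the product of Zbtb7b, which is needed for the helper fate. A cell selected on MHC class I expresses Runx3, which silences Cd4 and supports the cytotoxic fate, and ThPOK and Runx3 oppose each other. Bach2 is a transcriptional repressor that restrains effector programmes in T cells, and the comparison asks which transcripts of thymocytes depend on it.

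The Bach2 transcript checked the labels. It was at 6.50, 6.42 and 6.52 on Bach2 KO arrays and at 7.89, 8.20 and 8.05 on WT arrays, and it fell by 1.57 ± 0.11 (standard error from limma, here and for all differences below; adjusted p = 0.000156). Of 6 measured T cell identity markers 0 passed the test and 1 had an unadjusted p under 0.05, Cd28, whose Bach2 KO values all lay above the WT values (difference 0.25). Over all genes 0.567% passed, 6.91% had such a p and 5.13% had all Bach2 KO values above WT. Cd3e and Cd5 differed by 0.04 and -0.05. The CD8 co-receptor genes gave signal above the median of all probe sets, 4.94, on all 6 arrays, although the cells were sorted as CD4 single-positive. Cd8a was at 7.67, 7.90 and 8.90 on Bach2 KO arrays and at 7.86, 7.67 and 7.83 on WT arrays, so Bach2 KO replicate 3 stood apart from the other 5. Cd8b1 was at 8.77, 9.19 and 9.55 on Bach2 KO arrays and at 8.96, 9.0 and 9.14 on WT arrays. Pairs of arrays had a Pearson's r, taken over 35556 probe sets that are no independent replicates, of 0.990 to 0.991 within Bach2 KO, 0.981 to 0.988 within WT and 0.984 to 0.989 between the genotypes.

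None of the 9 factors passed the test at an adjusted p of 0.05 (limma, adjusted over all 19938 genes): 0 were higher, where 0.351% of all genes were called, and 0 lower, where 0.216% were, 0.567% in either direction. At an unadjusted p under 0.05 there were 2, Runx3 and Gata3, both lower in Bach2 KO, against 6.91% of all genes. For 3 of the 9, Runx3, Gata3 and Runx1, all Bach2 KO values lay below all WT values, which is 33.3% of the factors against 6.57% of all genes. For 0 of the 9 did all Bach2 KO values lie above, against 5.13% of all genes. The median difference of the 9 was -0.04, beside -0.01 over all genes, and 6 lay below 0 and 3 above. Because the genes were picked with earlier results of these data known, these shares describe the factors and are no test of them.

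**Figure D1:**
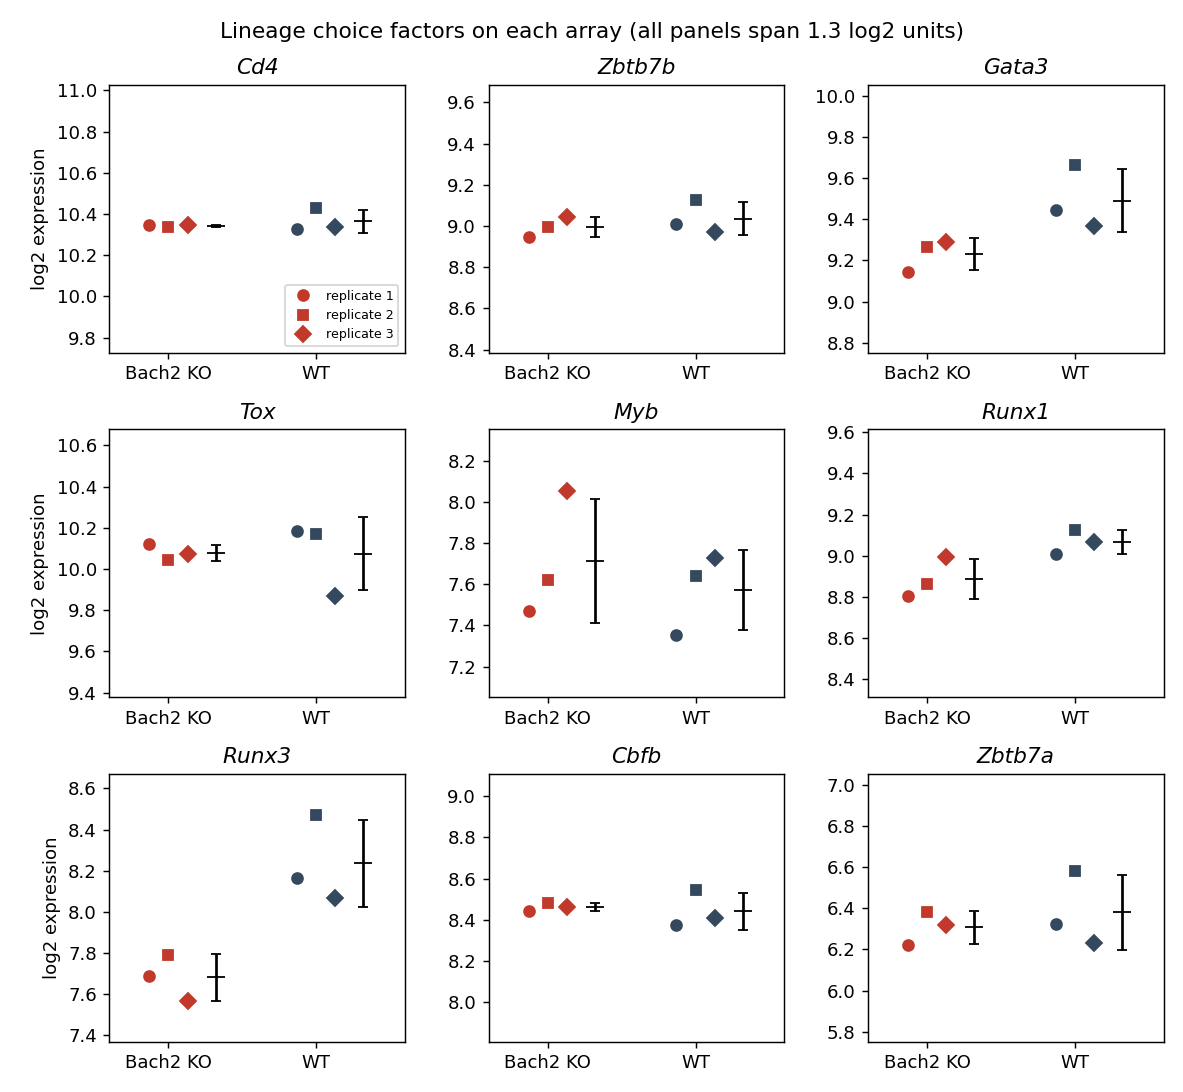
Log2 expression (y axis) of the 9 factors on each of the 6 arrays, with Bach2 KO left of WT in each panel; symbols mark the replicates and the bars to the right of each group show mean ± SD (n = 3). Bach2 KO and WT values are apart for Runx3, Gata3 and Runx1 and overlap for the other 6.

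The co-receptor transcript Cd4 (probe set 10547894), whose product binds MHC class II during selection, was nearly equal on all arrays. It was at 10.35, 10.34 and 10.35 on Bach2 KO arrays and at 10.33, 10.43 and 10.34 on WT arrays. The groups overlapped, and the difference of -0.02 ± 0.09 had a 95% interval from -0.22 to 0.18 (adjusted p = 0.998). The largest change inside that interval is 1.16-fold.

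Zbtb7b (probe set 10499612), the gene of ThPOK, was at 8.95, 8.99 and 9.05 on Bach2 KO arrays and at 9.01, 9.13 and 8.97 on WT arrays. Knockout and wildtype values were interleaved. The difference was -0.04 ± 0.09, with an interval from -0.25 to 0.17 (adjusted p = 0.996), which holds changes of up to 1.19-fold. The genes whose profile over the 6 arrays was most like that of Zbtb7b, by the root mean square difference between profiles centred on their own means, were Tmsb10 (0.011), Pfdn2 (0.013) and Arpc4 (0.013). Their differences, which the choice by profile places near that of Zbtb7b, were -0.03, -0.06 and -0.04.

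Gata3 (probe set 10479981), a zinc finger factor needed for CD4 lineage commitment that acts upstream of Zbtb7b, was lower on every Bach2 KO array. It was at 9.14, 9.27 and 9.29 on Bach2 KO arrays and at 9.44, 9.66 and 9.37 on WT arrays. The highest Bach2 KO value lay just below the lowest WT value, while WT replicate 2 was the highest of all. The means were 9.23 ± 0.08 in Bach2 KO and 9.49 ± 0.15 in WT (SD, n = 3 each), a difference of -0.26 ± 0.11 or 1.20-fold (unadjusted p = 0.0357, adjusted p = 0.653, limma). Without WT replicate 2 the difference was -0.17.

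Tox (probe set 10511416), a high-mobility-group protein required for CD4 T cells to develop, was at 10.12, 10.04 and 10.08 on Bach2 KO arrays and at 10.19, 10.17 and 9.87 on WT arrays. The low value of WT replicate 3 made the WT range wider than that of the knockout. The difference of 0.01 ± 0.11 had an interval from -0.24 to 0.25 (adjusted p = 0.998) and changed sign with the scaling, to -0.0051 after a second quantile normalization. Tox lies on the same chromosome as Bach2, with 68 tested genes between them in RefSeq gene order.

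Myb (probe set 10368199), which promotes Gata3 expression and the CD4 fate in thymocytes and is also used by their immature precursors, had the largest standard error of the 9. It was at 7.47, 7.62 and 8.05 on Bach2 KO arrays and at 7.35, 7.64 and 7.73 on WT arrays. Bach2 KO replicate 3 was the highest of the 6, and the groups overlapped. The means were 7.71 ± 0.30 in Bach2 KO and 7.57 ± 0.20 in WT (SD, n = 3 each), a difference of 0.14 ± 0.16 (adjusted p = 0.979). Without Bach2 KO replicate 3 it was -0.03. Bach2 KO replicate 3 was also the highest array for the recombinase gene Rag1, at 6.55, 7.92 and 8.75 on Bach2 KO arrays and 5.70, 6.61 and 7.09 on WT arrays. The double-positive and immature thymocyte markers, 7 in all, averaged 6.52, 7.11 and 7.79 on Bach2 KO arrays and 6.30, 6.64 and 6.72 on WT arrays. The part of immature cells in the Myb values was not tested.

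Among the RUNX genes, Runx3 was the factor furthest from 0 of all 9. The Runx proteins bind DNA together with Cbfb, a subunit that raises their affinity. In thymocytes Runx1 represses Cd4 before both co-receptors appear, and Runx3 silences it in the CD8 lineage. Runx genes have a distal and a proximal promoter, and the RefSeq windows (assembly GRCm38.p6) hold both for Runx1 and Runx3. The distal windows are shown because they share an 18-base stretch with a pair of RUNX motifs, so that these 2 genes can be read side by side. Each line gives 30 bases, 5′ to 3′, with the RUNX motif ACCACA (or its reverse complement TGTGGT) in capitals. Runx1 is at chr16:92826025-92826054 on the minus strand and Runx3 at chr4:135120503-135120532 on the plus strand. Zbtb7b, the one other with this motif among the 7 members that had a window, is at chr3:89387743-89387772 on the minus strand.
Runx1 distal promoter: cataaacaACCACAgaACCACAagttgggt
Runx3 distal promoter: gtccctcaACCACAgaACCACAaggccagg
Zbtb7b second promoter: ctggcgaggaacTGTGGTatgtgagtgggt

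With the start base counted as 0, the motifs began at positions 28 and 36 of Runx1, at -134 and -126 of Runx3 and at -89 of Zbtb7b. The motif was searched on both strands of windows that reach from 250 bases before to 50 after each start, and 16.8% of all 32851 windows held it. Of the 10 windows found for 7 of the 9 factors, 3 held it. Cd4 and Tox had no window and were not searched. The shared stretch occurred in 4 of all windows, those of Runx1, Runx2, Runx3 and Gm16225, a predicted gene on the chromosome of Runx3. The core of AP-1 and BACH sites, TGACTCA, occurred in 0 of the 10 windows of the factors and in 5.20% of all windows. These matches describe letters in these windows and say nothing of binding. The 250 bases before the distal start of Runx3 (chr4:135120395-135120644, plus strand) give the wider context of the motif pair, again in capitals.
Runx3 before the distal start: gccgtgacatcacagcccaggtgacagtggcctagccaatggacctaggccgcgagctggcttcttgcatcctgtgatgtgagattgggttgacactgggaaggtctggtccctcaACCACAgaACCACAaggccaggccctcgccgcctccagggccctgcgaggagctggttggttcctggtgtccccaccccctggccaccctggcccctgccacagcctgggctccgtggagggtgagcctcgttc

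Runx3 (probe set 10509030) was at 7.69, 7.79 and 7.57 on Bach2 KO arrays and at 8.17, 8.47 and 8.07 on WT arrays. All Bach2 KO values lay below all WT values, and the gap between the nearest arrays was wider than the range of the knockout. The means were 7.68 ± 0.11 in Bach2 KO and 8.24 ± 0.21 in WT (SD, n = 3 each). The difference was -0.55 ± 0.12, 1.47-fold lower in the knockout, with a 95% interval from -0.83 to -0.28 (unadjusted p = 0.00111). Adjusted over all genes it did not pass (adjusted p = 0.113), and it passed under 1 of 16 alternatives, a prior that follows expression level (adjusted p = 0.042; range over the alternatives 0.042 to 0.616). An unadjusted p under 0.05 was found under all 16. As in any bulk sample, fewer cells that express Runx3 and less Runx3 RNA per cell cannot be told apart. Runx3 is on the chromosome of Bach2, with 778 of its 1161 tested genes between them.

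The probe set does not tell which Runx3 promoter its transcripts came from. The genes with the profile most like that of Runx3 over the 6 arrays were Uap1 (root mean square difference 0.070), Sh3rf1 (0.076) and Kif23 (0.081). Their differences, which the choice by profile places near that of Runx3, were -0.50, -0.57 and -0.48.

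Runx1 (probe set 10441003) was at 8.80, 8.86 and 8.99 on Bach2 KO arrays and at 9.01, 9.12 and 9.07 on WT arrays. The groups did not overlap, but Bach2 KO replicate 3 lay only just under WT replicate 1. The means were 8.89 ± 0.10 in Bach2 KO and 9.07 ± 0.06 in WT (SD, n = 3 each), a difference of -0.18 ± 0.10 or 1.13-fold (unadjusted p = 0.0855, adjusted p = 0.825). The partner Cbfb (probe set 10574632) was at 8.44, 8.48 and 8.46 on Bach2 KO arrays and at 8.37, 8.54 and 8.41 on WT arrays, with the knockout values inside the WT range. Its difference of 0.02 ± 0.09 had an interval from -0.19 to 0.22 (adjusted p = 0.998), so changes of up to 1.17-fold are within it.

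Zbtb7a (probe set 10364984) encodes LRF, a close relative of ThPOK that works with it to keep CD4 cells in their lineage. It was at 6.22, 6.38 and 6.32 on Bach2 KO arrays and at 6.33, 6.58 and 6.23 on WT arrays, which overlap. The difference was -0.07 ± 0.11, with an interval from -0.32 to 0.18 (adjusted p = 0.99). Patz1 (probe set 10373728), the gene of MAZR, a BTB zinc finger factor that represses Zbtb7b in cells of the CD8 lineage, was lower on every knockout array. It was at 7.69, 7.71 and 7.86 on Bach2 KO arrays and at 7.98, 8.15 and 8.06 on WT arrays, without overlap. The means were 7.75 ± 0.09 in Bach2 KO and 8.06 ± 0.09 in WT (SD, n = 3 each). The difference of -0.31 ± 0.10 or 1.24-fold had an unadjusted p of 0.0101 (limma). It did not pass over all genes (adjusted p = 0.408).

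**Figure D2:**
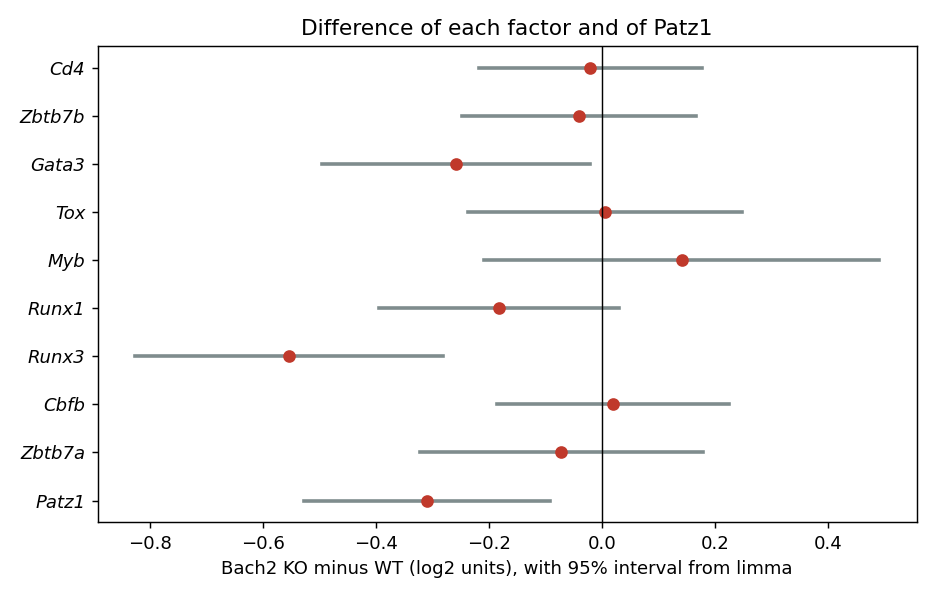
Differences in log2 units (x axis, Bach2 KO minus WT) of the 9 factors and Patz1 (y axis); points are limma estimates and lines their 95% intervals, unadjusted for the number of genes. The intervals of Runx3, Gata3 and Patz1 lie below 0, and those of the other 7 genes cross it.

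Over the 16 alternatives the difference ran from -0.64 to -0.44 for Runx3, from -0.32 to -0.17 for Gata3 and from -0.24 to -0.14 for Runx1. Of the 16, 9 move a difference and the others alter the spread or the genes tested, and leaving out an array cannot turn the sign of a gene whose groups do not overlap. Bach2 KO values of these 3 genes lay below all WT values after median centring of the arrays and after a second quantile normalization, too. The other 6 changed sign under 1 to 3 alternatives each, within -0.15 to 0.26.

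**Figure D3:**
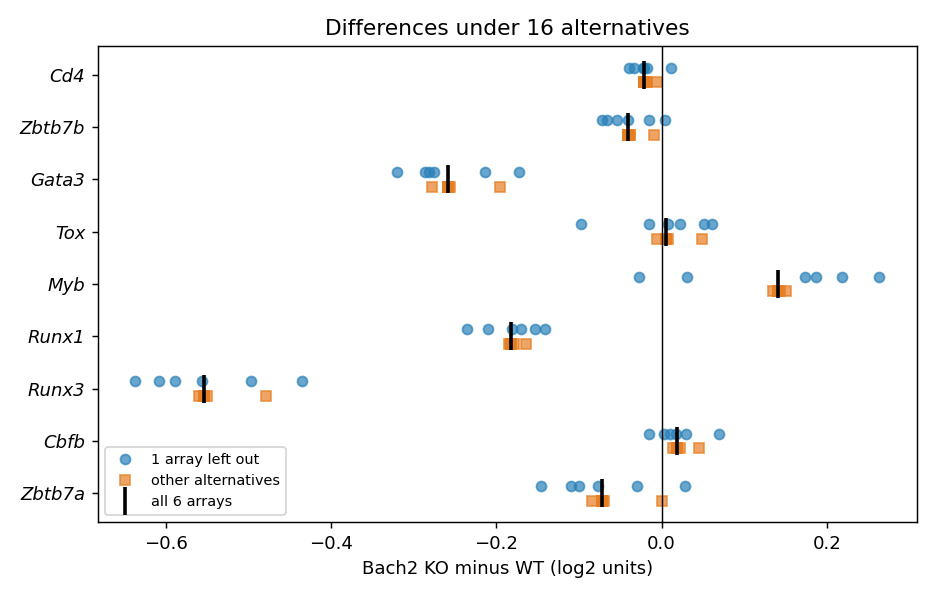
Difference of each factor in log2 units (x axis, Bach2 KO minus WT) with all 6 arrays (black bar), with 1 array left out (circles) and under 10 other alternatives (squares). Runx3, Gata3 and Runx1 stay left of 0, and the other 6 factors have values on both sides.

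Other genes that take part in the CD4 versus CD8 choice were read next, as a list of co-receptor genes, upstream factors and chromatin regulators. Of 19 measured, 0 passed in either direction by limma, with 3 higher and 1 lower at an unadjusted p under 0.05. Over all genes 0.567% passed and 6.91% had such a p. The median difference was -0.04. Il7r, a chain of the interleukin 7 receptor whose signals induce Runx3 in the CD8 lineage, was at 11.12, 11.13 and 11.22 on Bach2 KO arrays and at 10.59, 10.78 and 10.64 on WT arrays. Every knockout value lay above every wildtype value, in the direction opposite to Runx3. Its difference of 0.49 ± 0.10 just missed the threshold (adjusted p = 0.0706) and passed under 4 of 16 alternatives, among them the fit without WT replicate 2 (adjusted p over the 16 from 0.00117 to 0.385). Id2, an inhibitor of E proteins, was at 9.54, 9.61 and 9.61 on Bach2 KO arrays and at 9.27, 9.49 and 9.02 on WT arrays, a difference of 0.33 ± 0.12 (adjusted p = 0.56). The third gene with an unadjusted p under 0.05 and a higher value was Socs1, a cytokine signalling inhibitor induced by ThPOK, at 0.29 ± 0.13 (adjusted p = 0.72). It is named after its values were seen. Satb1, a chromatin organiser that acts on the enhancers of Zbtb7b and Runx3, differed by -0.01, and Lef1, which supports Zbtb7b expression, by -0.04. Both were chosen after their values were seen.

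Relatives of the factors held no gene past the test, where 0.567% of all genes passed and 6.91% had an unadjusted p under 0.05. Of 12 measured RUNX relatives and corepressors 0 passed, with 0 at an unadjusted p under 0.05 and a median difference of -0.08. The corepressors Tle3, Hdac1 and Sin3a had the smallest p, at -0.15 each. Of 11 BTB zinc finger relatives 0 passed and 1, Patz1, had an unadjusted p under 0.05, with a median of 0.01. Zbtb17 differed by 0.16 and Hic1 by -0.17. Of 9 GATA, TOX and MYB relatives 0 passed and 1 had an unadjusted p under 0.05, with a median of -0.0047. That gene was Gata1, the erythroid GATA factor, at 5.26, 5.0 and 5.32 on Bach2 KO arrays and 5.43, 6.05 and 5.64 on WT arrays. The groups did not overlap, and the difference was -0.51 ± 0.16 (adjusted p = 0.368). Zfpm2 and Tox2 differed by -0.16 and 0.16.

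Genes of the CD8 and cytotoxic programme, many of which Runx3 is known to support, were mostly lower in the knockout without passing the test. The parts of Runx3 and of regulatory T cells, whose markers are given below, in these values were not tested. Of 14 measured, 0 passed by limma. At an unadjusted p under 0.05 there were 7, all of them lower, beside 6.91% of all genes in either direction. For 5 the Bach2 KO values lay below all WT values, beside 6.57% of all genes, and the median difference was -0.48. Itgae, the integrin chain CD103 that depends on Runx3 in CD8 T cells, was at 4.66, 5.11 and 5.37 on Bach2 KO arrays and at 5.60, 6.48 and 6.46 on WT arrays, without overlap. Its difference was -1.13 ± 0.24 (adjusted p = 0.0961). Eomes, a T-box factor of cytotoxic cells, was at 4.63, 4.92 and 4.74 on Bach2 KO arrays and at 5.11, 5.61 and 5.66 on WT arrays, again without overlap, and differed by -0.70 ± 0.15 (adjusted p = 0.106). The cytotoxic effector genes Prf1 and Gzmb differed by -0.48 and -0.61, and Il2rb, the shared beta chain of the interleukin 2 and 15 receptors, by -0.76. Gzma, a granzyme of the same list, differed by 0.42, Fasl by 0.06 and Tbx21 by -0.04, 3 genes named after their values were seen. Gzmb lay under the median of all probe sets, 4.94, on all 6 arrays, and Eomes on the Bach2 KO arrays. Gzma lay under it on all arrays but Bach2 KO replicates 2 and 3, and Itgae on Bach2 KO replicate 1. Fasl lay close to that median (4.91 to 5.10) and Tbx21 just above it (5.02 to 5.23). Without WT replicate 1, Itgae, Eomes and Il2rb passed (3 of 14 lower). Cd8a (0.37 ± 0.26) and Cd8b1 (0.13 ± 0.17), the co-receptor genes of this fate, differed in the other direction with overlapping groups, and without Bach2 KO replicate 3 their differences were at their lowest, -0.0008 and -0.06.

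Of 6 genes typical of CD4 helper cells 0 passed, with 1 higher and 1 lower at an unadjusted p under 0.05 and a median of 0.15. Over all genes 0.567% passed and 6.91% had such a p. Cd40lg, the helper ligand of CD40, was at 9.59, 9.58 and 9.60 on Bach2 KO arrays and at 9.42, 9.50 and 9.37 on WT arrays. The knockout values lay above all WT values, by a difference of 0.16 ± 0.09 (adjusted p = 0.852). Il6ra differed by 0.39 and Tnfrsf4, which regulatory T cells also express, by -0.47.

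**Figure D4:**
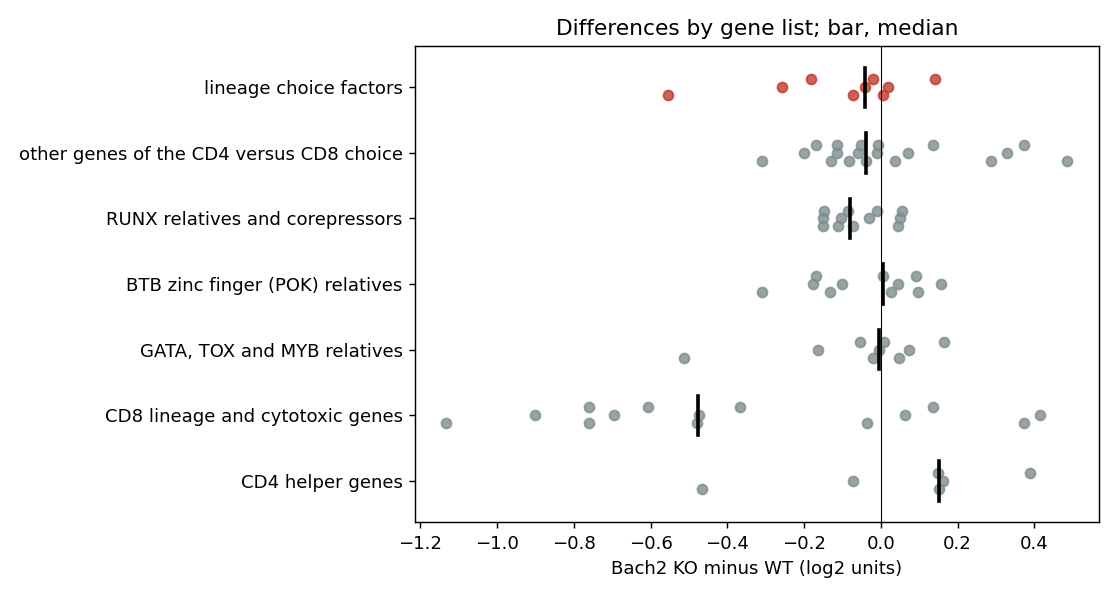
Difference of every measured gene in log2 units (x axis, Bach2 KO minus WT) for the 9 factors and 6 other gene lists (y axis); black bars mark medians. Of the lists drawn, the CD8 lineage and cytotoxic genes have the lowest median, -0.48, and the factors have a median of -0.04. The regulatory T cell markers, which are not drawn, have a median of -1.68.

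Markers of other cells the sort could hold moved in part with these values. Of 6 regulatory T cell markers 4 fell and 0 rose, where 0.216% of all genes fell: Foxp3 (-2.43), Ikzf2 (-1.51), Lrrc32 (-1.86) and Il2ra (-1.93), while Ctla4 differed by -1.09 without passing (adjusted p = 0.0568). The 6 averaged 6.68, 6.53 and 6.66 on Bach2 KO arrays and 7.56, 8.39 and 8.43 on WT arrays, so WT replicate 1 was lowest of the WT arrays. With 1 array left out, 1 to 5 of them passed, the fewest without WT replicate 3 and the most without WT replicate 1, and 0 passed without moderation or in the fit of all probe sets (5 of the 6 had an unadjusted p under 0.05 in either fit). Among the WT arrays, Runx1, Patz1, Itgae, Eomes and Il2rb were also lowest in replicate 1, and Runx3 and Gata3 in replicate 3. Of the other CD8 list genes, Prf1, Nkg7, Ccl5 and Cd8b1 were lowest in WT replicate 1. Cd8a, Gzmb and Fasl were lowest in WT replicate 2, and Crtam, Klrd1, Gzma and Tbx21 in WT replicate 3. These genes are named here so that all 14 of the list are placed. Without WT replicate 1 the differences were -0.59 for Runx3, -0.28 for Gata3 and -0.21 for Runx1. The part of regulatory T cells in the values of the factors, Patz1 and the CD8 list was not tested.

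Of 5 natural killer T cell markers 0 passed and 2 (Il2rb, and Cd160 at -0.44) had an unadjusted p under 0.05, beside 6.91% of all genes. The 5 markers averaged 5.34, 5.39 and 5.32 on Bach2 KO arrays and 5.57, 5.66 and 5.59 on WT arrays, without overlap. Klrb1c differed by -0.06, Tbx21 by -0.04 and Zbtb16, the defining factor of natural killer T cells, by 0.03, each with overlapping groups. Tbx21 and Zbtb16 were named after their values were seen. Klrb1c lay below the median of all probe sets, 4.94, on all 6 arrays. Among the 7 measured markers of immature thymocytes 0 passed and 3 had an unadjusted p under 0.05, beside 6.91% of all genes (Arpp21 at 0.95, Rag1 at 1.27 and Ptcra at 0.33). Of 6 myeloid markers Lyz2 rose by 1.39 (adjusted p = 0.0256), which did not hold in 4 of the 6 fits that left out 1 array, those without WT replicate 2 or 3 or without Bach2 KO replicate 1 or 2. Nor did Lyz2 pass without moderation or in the fit of all probe sets. Itgam (-0.33) and Cd68 (0.31) did not pass. The myeloid markers averaged 4.85, 4.56 and 4.43 on Bach2 KO arrays and 4.43, 4.22 and 4.48 on WT arrays, which overlap. None of the 4 B cell or 4 dendritic cell markers passed (0 at an unadjusted p under 0.05, limma), and their differences ran from -0.04 to 0.30 and from -0.07 to 0.31. Itgam, Csf1r, Adgre1, Cd14, Ms4a1, Cd79a and all 4 dendritic cell markers had means below 4.94, so their differences say little of these cells. The part of these other cells in the values of the 9 factors was not tested.

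**Figure D5:**
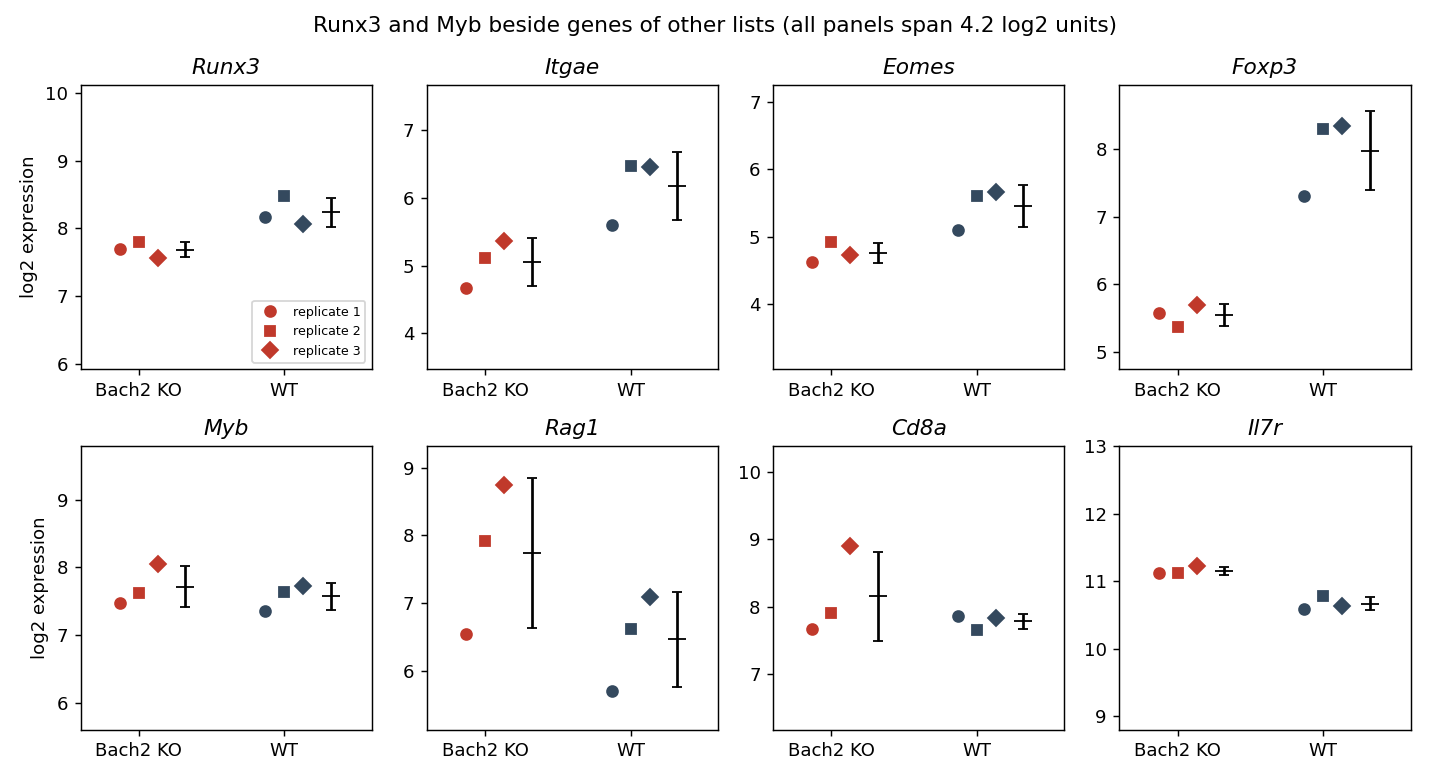
Log2 expression (y axis) of Runx3 and Myb and of 6 genes from other lists on each array, with Bach2 KO left of WT; symbols mark the replicates and bars mean ± SD (n = 3). Runx3, Foxp3, Itgae and Eomes have all knockout values below all WT values. Myb, Rag1 and Cd8a are all highest on Bach2 KO replicate 3.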

How the data were processed

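Arrays from 6 sorted thymocyte samples were used, 3 per genotype, grouped by their titles. The authors deposited log2 values, 1 per probe set and array; the scale was read from the values. Per the submitters' processing notes they used RMA and Partek, without versions; the genome build was not given in the sources used here. Because RMA equalises the distributions of the arrays, a change common to all genes would be missed. Symbols came from the platform annotation: of 35556 probe sets 21789 had 1 symbol, 1621 several and 12146 none listed. For a gene with several probe sets, the one of highest mean over the arrays was kept (19938 genes, 999 with more than 1), and levels were not compared between genes. All genes entered one two-sided limma fit (version 3.58.1, lmFit then eBayes, R 4.3.3), adjusted by Benjamini-Hochberg with a threshold of 0.05, and the fit was tested on simulated data. Figures used matplotlib 3.10.9. Arrays have no read depth; their number limits precision. Promoters are from RefSeq, GRCm38.p6.

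The members, lists, tests and alternatives were chosen with earlier results of these data known. Named were all members, Bach2, Patz1, Cd8a, Cd8b1, Foxp3 and Rag1, the 3 genes with the smallest p of each list (all that passed, if more), list genes without overlap that differed by over 0.5, and the 3 genes most like Zbtb7b and Runx3 among those whose SD over the arrays was not under 50% of theirs. Some list genes are not reported here. The 16 alternatives were 2 other priors, an unmoderated fit, removal of dim genes (mean at or below 4.94), 2 rescalings (median centring and another quantile normalization), weights per array, the mean over a gene's probe sets, a fit of all probe sets, a replicate block, and 6 fits that each left out an array.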

Additional observations from a re-analysis of the deposited data

How the results depend on the processing

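The count of factors past the threshold was 0 in each direction under 15 of 16 alternatives; with a prior that follows expression level 1 was lower, Runx3. Of 144 recomputed differences of the factors 81 moved at all, since the other settings alter only the spread or the genes tested, and 9 of these changed sign: Tox after a second quantile normalization (-0.0051), Zbtb7a with array weights (0.0011) and, with 1 array left out, Cd4 (range -0.0397 to 0.0113), Zbtb7b (-0.072 to 0.0040), Tox (-0.0973 to 0.0607), Myb (-0.0278 to 0.264), Cbfb (-0.0158 to 0.0697) and Zbtb7a (-0.146 to 0.0288). The cause was not tested. Over all genes 70 were higher and 43 lower. A linear model without moderation called 1 higher and 0 lower (before adjustment, 572 and 708 had p under 0.05). The fit of all probe sets called 29 and 8. It tests more features and takes its prior from them, so unadjusted p-values change too (Runx3 from 0.00111 to 0.00457, limma). A prior that follows expression level called 100 and 78. Leaving out 1 array gave 29 to 82 higher and 18 to 66 lower, the fewest of both without WT replicate 3, the most higher without WT replicate 2 and the most lower without WT replicate 1. The labels do not pair the samples, and deviations of arrays with the same number correlated at 0.21, 0.11 and -0.07, with 2 of 3 Bach2 KO arrays closest to the WT array of their own number. With the replicate block 79 genes were higher and 55 lower, 0 factors passed in either direction (limma; unadjusted p under 0.05 for Runx3 and Gata3) and Runx3 had an adjusted p of 0.0594, while 2 of the CD8 lineage and cytotoxic genes (Itgae and Eomes, lower) and Rag1 (higher) passed. The number of arrays, 3 per genotype, limits the precision of all differences.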
